A study of Rattus norvegicus with 8 samples.

Results

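The genes described are those that set the supply of polyamines in the cell: Odc1, Amd1, Oaz1, Azin1 and Sat1. They were chosen by name, as every probe set whose only gene symbol on the platform is 1 of these 5. That gave 6 of the 8740 probe sets, for 4 of the 4736 genes named by a single symbol: 2 for Odc1, 1 for Amd1, 1 for Oaz1 and 2 for Azin1. Sat1 is not analysed here, because 0 probe sets carried it as their single symbol. The samples were soleus muscles, a slow postural muscle of the hindlimb, of female rats, on 8 one-colour Affymetrix arrays. Control rats (3 arrays) moved about their cages for 12 h. Unloaded rats (3 arrays) could not stand on their hindlimbs for 12 h, and walked rats (2 arrays) were unloaded in the same way and then walked on a treadmill for 2 h in all, in bouts of 30 min that alternated with equal times of cage activity, for 4 h. Each array was hybridised with RNA pooled from 8 to 10 rats, so the spread between arrays is a spread between pools, and neither strain nor age is given in the labels. With whole muscle, fewer cells of a type and less RNA per cell cannot be told apart.

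Polyamines (putrescine, spermidine and spermine) are small positively charged molecules that bind RNA and support translation and growth. Ornithine decarboxylase, the product of Odc1, makes putrescine from ornithine, and the decarboxylase encoded by Amd1 turns S-adenosylmethionine into the donor of the groups that lengthen putrescine to spermidine and spermine. Antizyme (Oaz1), whose synthesis needs a ribosomal frameshift that polyamines promote, binds ornithine decarboxylase and hands it to the proteasome. The antizyme inhibitor (Azin1) resembles the decarboxylase without its activity and takes antizyme away from it. Sat1 acetylates spermidine and spermine, the first step of their breakdown and export. Odc1 is also known in muscle as a gene that androgens and growth stimuli raise.

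Promoter sequences from RefSeq (assembly GRCr8) were found for 4 of the 5 genes, and those of the measured ones, Odc1, Amd1 and Oaz1, are shown because the results turn on the first pair and Oaz1 is set against them. Each is the 250 bases before the annotated start, read 5′ to 3′ on the strand of the gene: Odc1 at chr6:46058415-46058664 on the plus strand, Amd1 at chr20:45265983-45266232 on the minus strand and Oaz1 at chr7:9536991-9537240 on the minus strand. Capitals mark matches on either strand to 3 motifs. One is TATAA, a core promoter motif that lies just before many starts. Another is TGACG, the core of a cAMP response element. The last is CACGTG, the E-box that Myc binds together with Max.
Odc1: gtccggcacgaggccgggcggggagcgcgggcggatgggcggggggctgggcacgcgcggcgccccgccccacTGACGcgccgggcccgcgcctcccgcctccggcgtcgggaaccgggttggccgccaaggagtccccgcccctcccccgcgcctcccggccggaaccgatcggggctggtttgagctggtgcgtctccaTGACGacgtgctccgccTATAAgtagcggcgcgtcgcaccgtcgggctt
Amd1: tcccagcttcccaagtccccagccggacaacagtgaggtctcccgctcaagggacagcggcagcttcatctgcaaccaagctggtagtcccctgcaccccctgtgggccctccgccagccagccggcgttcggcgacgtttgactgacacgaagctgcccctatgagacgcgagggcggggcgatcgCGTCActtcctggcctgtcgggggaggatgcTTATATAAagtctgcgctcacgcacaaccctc
Oaz1: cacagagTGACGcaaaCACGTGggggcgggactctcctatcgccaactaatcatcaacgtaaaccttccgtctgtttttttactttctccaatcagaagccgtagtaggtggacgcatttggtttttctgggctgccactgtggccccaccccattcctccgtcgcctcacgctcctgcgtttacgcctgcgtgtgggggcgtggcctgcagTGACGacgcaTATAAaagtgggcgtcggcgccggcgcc

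A TATAA match lay close to the start in each: 32 to 28 bases before it in Odc1, 29 to 25 in Amd1, where a match on the other strand (32 to 28) overlaps it, and 28 to 24 in Oaz1. Of all 33469 promoters in the table, 24.0% held TATAA in a window of this length. TGACG was found 49 to 45 bases before the start of Odc1 and again 177 to 173 before it, 63 to 59 before Amd1 on the other strand, and 38 to 34 and 243 to 239 before Oaz1; 18.2% of all promoters held it. CACGTG, held by 5.6% of all promoters, was found once in Oaz1, 234 to 229 bases before the start, and not in the windows of Odc1 or Amd1. GC boxes (GGGCGG on either strand, not capitalised), held by 30.5%, were found 5 times in Odc1 and once each in Amd1 and Oaz1. The Odc1 window was 78.0% G and C, against a median of 51.2% over all promoters. A match is a run of letters, and no binding was measured.

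The tissue label was checked against its markers. All 7 slow fibre markers measured had a mean signal of 413 to 5323 in control, with the slow myosin Myh7 at 5323 ± 169 (SD, n = 3). Fast fibre markers were present too: of 9 measured, the myosin Myh4 had the lowest mean (42.9 ± 4.08) and the troponin Tnnt3 the highest (2653 ± 299). Levels of different probe sets are not comparable, so these values show which markers were detected and not the fibre makeup. Arrays of a group correlated at 0.949 to 0.963 over the tested probe sets and arrays of different groups at 0.913 to 0.945. On the first principal component control pool 3 lay away from pools 1 and 2 (-30.0 against -14.2 and -16.3). For the 6 probe sets of the polyamine genes, the differences from control are also given without it. A difference is given as a log2 fold change with its standard error (SE) from limma, and "rose" and "fell" are kept for an adjusted p (Benjamini-Hochberg, over all 5244 tested probe sets) under 0.05. All 6 probe sets of the polyamine genes were bright enough to be tested, and 0 of them had an array at the floor of 4.10 below which signals were set equal.

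Odc1, the gene of the first enzyme of the pathway, fell with unloading on both of its probe sets, to a little over 50% of the control level. On the brighter probe set (J04792_at) the signal was 395, 412 and 463 in control pools 1 to 3, 226, 224 and 256 in unloaded pools 1 to 3, and 267 and 388 in walked pools 1 and 2. Every unloaded pool lay below every control pool, and both walked pools lay between them. The means were 423 ± 35.2 (SD, n = 3) in control and 236 ± 18.1 (n = 3) in unloaded muscle, a log2 fold change of -0.85 ± 0.16 (SE; limma adjusted p = 0.00891). Unloaded muscle thus had 0.557 times the control signal, with a 95% interval of 0.435 to 0.712.

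The dimmer Odc1 probe set (J04791_s_at) gave 183, 155 and 127 in control pools 1 to 3, 77.8, 67.5 and 92.2 in unloaded pools 1 to 3, and 136 and 113 in walked pools 1 and 2. Again the unloaded pools were all below the controls, while the walked pools overlapped the lowest control. The log2 fold change with unloading was -0.96 ± 0.19 (SE; limma adjusted p = 0.0117), or 0.512 times the control signal with a 95% interval of 0.382 to 0.688. The spread within groups was wider on this probe set, with a coefficient of variation of 18.1% in control against 8.33% on the brighter one. Its call was lost when no filter on dim probe sets was used (adjusted p = 0.0524) and without unloaded pool 2 (-0.86, adjusted p = 0.0508). The brighter probe set kept its call under all 17 alternatives, with log2 fold changes from -0.91 to -0.78 and adjusted p of up to 0.0444. Across all tested probe sets, 3.32% fell in this comparison, and the median log2 fold change was -0.08.

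After walking, the Odc1 signal was above that of unloaded muscle in both pools on both probe sets, but no difference passed the test. The brighter probe set averaged 328 ± 85.2 (SD, n = 2) in walked muscle, 0.45 ± 0.18 above unloaded on the log2 scale (SE; limma adjusted p = 0.220). The dimmer one averaged 125 ± 16.2, a difference of 0.66 ± 0.22 (adjusted p = 0.129). The walked pools did not agree on the size: on the brighter probe set pool 2 was the higher one and on the dimmer probe set pool 1. Without walked pool 2 the brighter probe set differed from unloaded by 0.19, and without walked pool 1 by 0.72. Against control, walked muscle was at -0.39 ± 0.18 (adjusted p = 0.210) and -0.30 ± 0.22 (adjusted p = 0.433), with 95% intervals from -0.79 to 0.01 and from -0.78 to 0.17.

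**Figure D1:**
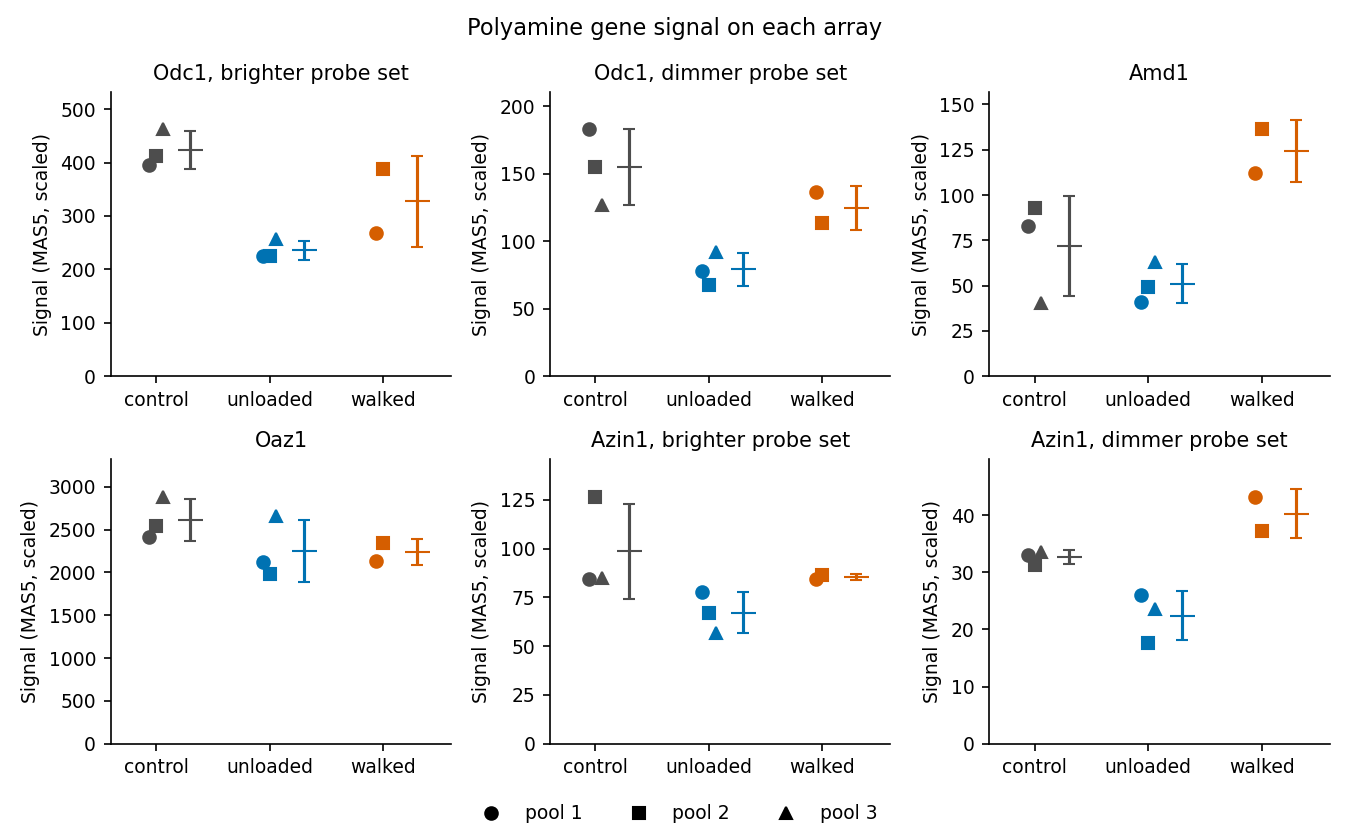
Signal of each of the 6 probe sets (y axis, scaled MAS5 signal on a linear scale from 0) on each array, by group; marker shape gives the pool number, and the bar beside each group gives the mean ± SD. Odc1 was at 395 to 463 in control and 224 to 256 in unloaded muscle on its brighter probe set, and Amd1 was highest in the walked pools, at 112 and 136.

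Amd1, the gene of the second decarboxylase, showed its largest difference after walking and not after unloading. Its probe set (rc_AI008131_s_at) gave 82.8, 92.6 and 40.6 in control pools 1 to 3, 41.2, 49.3 and 63.0 in unloaded pools 1 to 3, and 112 and 136 in walked pools 1 and 2. Both walked pools lay above all 6 other arrays. The control pools did not form a tight group, since pool 3 lay just below the lowest unloaded pool. Walked muscle had 2.46 times the unloaded signal (95% interval 1.46 to 4.13), a log2 fold change of 1.30 ± 0.34 (SE) that missed the threshold (limma adjusted p = 0.0620).

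Whether Amd1 was called differed between settings. Its difference between walked and unloaded muscle passed without control pool 3 (the same 1.30, adjusted p = 0.00851), with only the arrays of these 2 groups (adjusted p = 0.0139), and with a pseudocount of 16 in place of the floor (1.07, adjusted p = 0.0471). Over its 17 alternatives the adjusted p ran from 0.00851 to 0.323, the latter without walked pool 2. Unloaded against control, the log2 fold change was -0.43 ± 0.30 (adjusted p = 0.472), and -0.80 without control pool 3 (adjusted p = 0.0823). Walked against control it was 0.87 ± 0.34 (adjusted p = 0.139), and 0.50 without control pool 3 (adjusted p = 0.308).

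Oaz1, the antizyme gene, passed the test in none of the 3 comparisons, with group means that lay within the range of the unloaded pools. The probe set (D10706_s_at) gave 2414, 2542 and 2885 in control pools 1 to 3, 2115, 1978 and 2662 in unloaded pools 1 to 3, and 2129 and 2341 in walked pools 1 and 2. Unloaded pool 3 lay among the controls, and the walked pools lay inside the range of the unloaded ones. Unloaded against control the log2 fold change was -0.22 ± 0.14 (SE; limma adjusted p = 0.393), with a 95% interval from -0.52 to 0.08. Between walked and unloaded muscle the 95% interval ran from -0.34 to 0.34 (adjusted p = 1.00), so that a change of up to about 1.26-fold either way was within the error. Walked against control it was -0.22 ± 0.15 (adjusted p = 0.412), with both walked pools below all controls.

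Azin1, which counteracts antizyme, was lower in unloaded than in control muscle on both probe sets by similar amounts, neither of which passed the test. The brighter probe set (D89983_at) gave 84.2, 127 and 84.7 in control pools 1 to 3, 77.6, 66.9 and 56.8 in unloaded pools 1 to 3, and 84.4 and 86.4 in walked pools 1 and 2. The unloaded pools lay below the others, and control pool 2 lay above all 7 other arrays. The log2 fold change was -0.54 ± 0.21 with unloading (SE; limma adjusted p = 0.168) and 0.36 ± 0.24 between walked and unloaded muscle (adjusted p = 0.492).

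On the dimmer Azin1 probe set (rc_AI043631_s_at) the controls were close together at 33.1, 31.3 and 33.5, the unloaded pools were at 26.0, 17.6 and 23.5, and the walked pools at 43.2 and 37.2. The groups did not overlap in any of the 3 comparisons. The differences were -0.56 ± 0.33 with unloading (SE; limma adjusted p = 0.362), 0.86 ± 0.36 between walked and unloaded muscle (adjusted p = 0.250) and 0.30 ± 0.36 between walked and control muscle (adjusted p = 0.674). Its mean signal of 30.7 was just above the 25.8 needed to be tested, where the fitted spread is wider. It reached that only through the control and walked arrays (means 32.6 and 40.2), since the mean in unloaded muscle, 22.4, was under it. Against control the walked pools had -0.18 ± 0.24 on the brighter probe set (adjusted p = 0.704), opposite in sign to the dimmer one, and 0.016 without control pool 2.

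Without control pool 3 the differences from control of all 6 probe sets kept their sign and their side of the threshold. Unloaded against control, Odc1 then had -0.78 (limma adjusted p = 0.0259) on the brighter and -1.10 (adjusted p = 0.00833) on the dimmer probe set. Oaz1 had -0.15 in that comparison, and Azin1 had -0.63 on the brighter and -0.54 on the dimmer probe set. Walked against control, the values were -0.32 and -0.44 for Odc1, -0.15 for Oaz1, and -0.27 and 0.32 for Azin1. The fall of Odc1 thus did not rest on that pool.

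**Figure D2:**
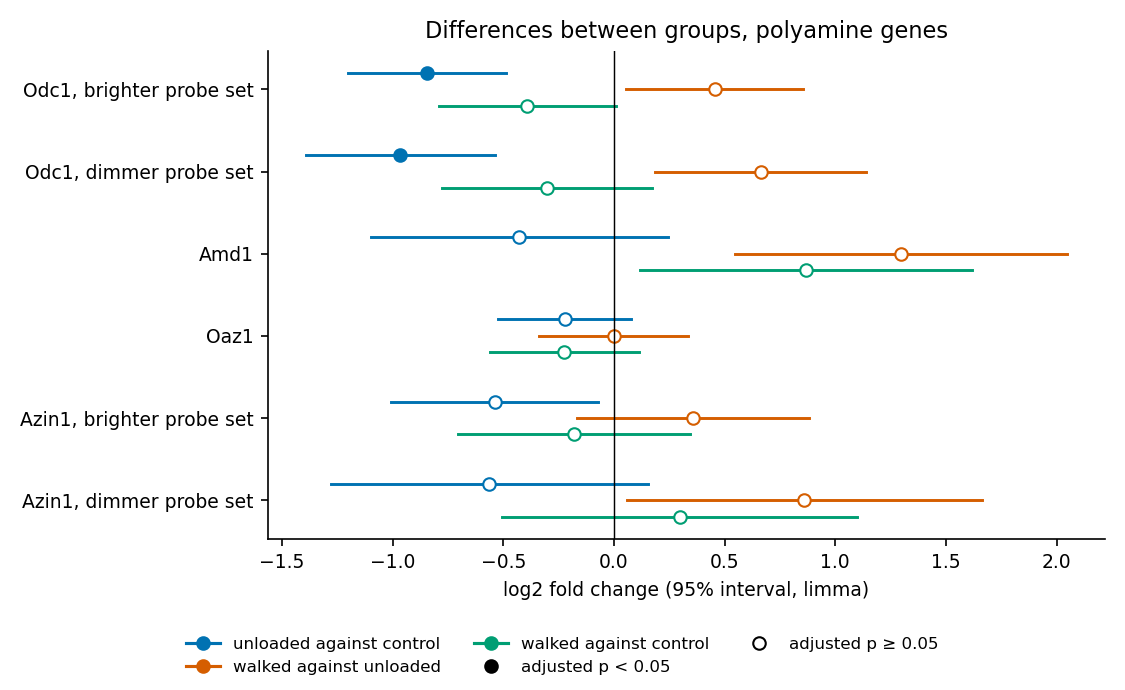
Log2 fold changes (x axis) of the 6 probe sets (y axis) in the 3 comparisons, with 95% intervals from limma; filled points have an adjusted p under 0.05. The filled points are those of Odc1 for unloaded against control, at -0.85 and -0.96, and the Oaz1 point for walked against unloaded lies at 0.

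Counted together, all 6 probe sets had a lower mean in unloaded than in control muscle, and 2 of them (both of Odc1) fell and 0 rose, where 7.30% of all tested probe sets were called. At an unadjusted p under 0.05, 3 were lower and 0 higher, against 12.3% and 9.19% of all, and 4 were lower and 0 higher without overlap between the groups, against 16.1% and 10.2%. The median log2 fold change of the 6 was -0.55, against -0.08 over all. In walked against unloaded muscle limma called 0 of the 6, where 4.20% of all tested probe sets were called; 4 of the 6 were higher and 0 lower at an unadjusted p under 0.05, against 6.98% and 10.5% of all, and 5 were higher and 0 lower without overlap, against 13.5% and 21.8%. Their median was 0.56, against -0.05 over all. In walked against control muscle limma called 0 of the 6 (9.08% of all were called), and 1, Amd1, was higher at an unadjusted p under 0.05 (9.17% of all). There 2 were higher and 2 lower without overlap, with 15.5% and 27.6% of all. The dimmer Azin1 probe set is among those without overlap in all 3 comparisons. It passed the filter only through the control and walked arrays, so its part in the counts is no support for them. The 6 are not independent, since 2 pairs share a gene, and the comparisons share arrays: the first and second share the unloaded arrays, the first and last the controls, and the second and last the walked arrays.

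The order of the group means differed by gene. Odc1 was highest in control, then walked, then unloaded muscle on both probe sets, and of these steps control over unloaded passed the test. Amd1 was highest in walked, then control, then unloaded muscle, with no step that passed. Azin1 had the Odc1 order on its brighter probe set and the Amd1 order on its dimmer one. For Oaz1 control was highest, and unloaded and walked muscle could not be ordered, at 2252 ± 362 (SD, n = 3) and 2235 ± 151 (n = 2).

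Because Odc1 and its antizyme are read on the same array, any constant factor applied to a whole array cancels from the difference between their log2 signals. A normalization that acts differently on bright and dim probe sets does not cancel. This difference has no meaning as a level, but it can be followed across groups; the 4 pairs of genes examined were chosen after the values had been seen. Odc1 (mean of its probe sets) minus Oaz1 was -3.17, -3.33 and -3.57 in control pools 1 to 3, -4.00, -4.01 and -4.11 in unloaded pools 1 to 3, and -3.48 and -3.48 in the walked pools. Every unloaded pool lay below every other array, and the walked pools lay inside the control range. The means differed by -0.68 between unloaded and control muscle and by 0.56 between walked and unloaded muscle. Each had an exact two-sided permutation p of 0.1, the smallest that 3 against 3 or 3 against 2 arrays can give, and 0.24 after adjustment over 12 tests. After quantile normalization these differences were -0.55 and 0.56, and that between walked and control muscle went from -0.12 to 0.01. Without control pool 3, unloaded and control muscle differed by -0.79 and walked and control muscle by -0.23.

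Amd1 minus Odc1 was -1.70, -1.45 and -2.58 in control pools 1 to 3, -1.69, -1.32 and -1.29 in unloaded pools 1 to 3, and -0.77 and -0.62 in walked pools 1 and 2. The walked pools were above all others, by 0.74 over unloaded and 1.21 over control muscle on average (exact two-sided permutation p of 0.1 for each, 0.24 adjusted). The 1.21 includes control pool 3, which at -2.58 lay below all other arrays and so widens it. Amd1 minus Oaz1 was 1.30 higher in walked than in unloaded muscle and did not overlap (exact p of 0.1, 0.24 adjusted). Azin1 minus Oaz1 was 0.61 higher there (exact p of 0.2, 0.267 adjusted), with walked pools at -5.14 and -5.37 and unloaded pools at -5.56, -5.85 and -6.19. The other differences had exact p-values of 0.2 to 0.7.

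**Figure D3:**
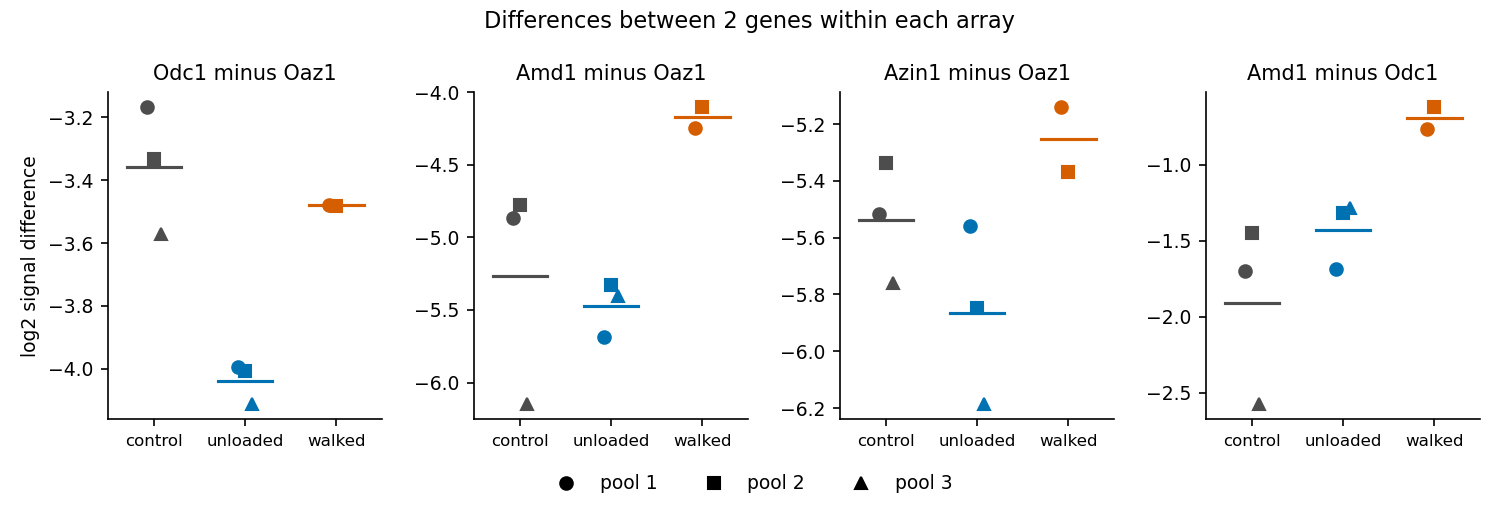
Difference in log2 signal between a pair of genes on the same array (y axis, a separate scale in each panel that does not start at 0), by group; marker shape gives the pool number and the line the group mean. Odc1 minus Oaz1 was -4.11 to -4.00 in unloaded muscle and -3.57 to -3.17 in control muscle, and Amd1 minus Odc1 was highest in the walked pools, at -0.77 and -0.62.

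The probe sets of other genes whose log2 signal followed each member most closely over the 8 arrays, among those with 1 gene symbol, were found by Pearson correlation, given as a description because arrays of a group share their treatment. For Odc1 (brighter probe set) they were the cytochrome oxidase subunit Cox5b (r = 0.950), Basp1 (0.948) and the lipid phosphate phosphatase Plpp1 (0.945). For Amd1 they were the connexin Gja5 (0.938), the co-chaperone Stip1 (0.931) and Cand1 (0.928), an exchange factor of cullin ubiquitin ligases. Those of Gja5 and Stip1 were 2.19 and 1.03 higher in walked than in unloaded muscle on the log2 scale. For Oaz1 they were the proteasome subunit Psmb4 (0.990), the initiation factor subunit Eif3b (0.979) and the calcium-binding protein Sri (0.961), and for Azin1 (brighter probe set) Nsun4 (0.959), Pea15 (0.924) and Trh (0.913). These are the highest of 4334 or 4335 correlations over 8 arrays, so they are high by selection, and no test was made.

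Around these genes, a list of 69 genes of polyamine breakdown, transport, substrate supply and use, and regulation was followed. Of these, 38 had a probe set and 25 were bright enough to be tested, 1 probe set a gene. With unloading 0 rose and 1 fell, against 3.99% and 3.32% of all tested probe sets. In walked against unloaded muscle 2 rose and 0 fell (2.73% and 1.47% of all), and in walked against control muscle 1 rose and 0 fell (4.46% and 4.61%). These counts leave out dimmer probe sets. That of Mxi1, listed as a regulator, fell in walked against control muscle (-0.88 ± 0.22, SE, limma adjusted p = 0.0327). The brighter Mxi1 probe set had -0.003 ± 0.16 there (adjusted p = 0.992). At an unadjusted p under 0.05, 1 was higher and 3 lower with unloading, 5 and 2 in walked against unloaded, and 3 and 5 in walked against control muscle. The shares of all tested probe sets were 9.19% and 12.3%, 6.98% and 10.5%, and 9.17% and 15.5%. Most of these counts thus lay near the background. The 5 of 25 higher in walked against unloaded muscle were above it, in a list chosen with earlier results known. No test of the list was made. The medians of the 25 were -0.14, 0.11 and -0.06, against -0.08, -0.05 and -0.11 over all. The spermidine and spermine synthases Srm and Sms, the spermine oxidase Smox and the 4 genes of the eIF5A hypusine pathway, which uses spermidine, are not analysed here.

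The 2 rises after walking were in transporters, of 6 tested. Slc3a2, the heavy chain shared by several amino acid exchangers and linked to polyamine transport, gave 635, 695 and 692 in control pools 1 to 3, 445, 362 and 577 in unloaded pools 1 to 3, and 1070 and 1006 in walked pools 1 and 2. The walked pools were above all others and the unloaded pools below all others. It rose by 1.20 ± 0.18 (SE; limma adjusted p = 0.00269) between unloaded and walked muscle, and by 1.43 ± 0.16 on its other probe set (adjusted p = 0.000205). With unloading it had -0.57 ± 0.16 (adjusted p = 0.0605), and the other probe set fell by 0.54 (adjusted p = 0.0420). Walked against control it had 0.62 ± 0.18 (adjusted p = 0.0560), and the other probe set rose by 0.89 ± 0.16 (adjusted p = 0.00757). Without control pool 3 the first had -0.55 with unloading and 0.64 against control (adjusted p = 0.122 and 0.0843).

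Slc22a3, an organic cation transporter that also carries polyamines, gave 19.5, 48.9 and 27.6 in control pools 1 to 3, 27.5, 21.9 and 29.9 in unloaded pools 1 to 3, and 110.1 and 123 in walked pools 1 and 2. Both walked pools stood above all other arrays, which overlapped. It rose by 2.15 ± 0.39 against unloaded (SE; limma adjusted p = 0.00779) and by 1.97 ± 0.39 against control (adjusted p = 0.0127). Without control pool 3 the difference from control was 1.91 (adjusted p = 0.0296). Both calls were lost without walked pool 1 (adjusted p = 0.0746 and 0.0782), without walked pool 2 (0.108 and 0.111) and with no filter (0.0645 and 0.0630). Its other probe set was too dim to be tested, at 8.30 to 19.0 in control and unloaded pools and 29.5 and 14.5 in the walked ones.

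The 1 fall with unloading was in Cth, which breaks down cystathionine on the route from methionine to cysteine. Its signal was 56.1, 43.8 and 64.0 in control pools 1 to 3, 8.49, 8.40 and 8.80 in unloaded pools 1 to 3, and 29.2 and 22.2 in the walked pools. The groups were separate, in the Odc1 order. The fall was -2.66 ± 0.41 (SE; limma adjusted p = 0.00284), and -2.53 without control pool 3 (adjusted p = 0.0235). Its size depends on the treatment of low signals: with a pseudocount of 16 in place of the floor it was -1.51 (adjusted p = 0.00157). The probe set reached the mean signal needed to be tested only through the controls, since the means in unloaded and walked muscle, 8.57 and 25.7, were under 25.8, so its call is no support for the list. The other Cth probe set, too dim to be tested, overlapped between groups, at 4.80, 13.3 and 18.0 in control pools 1 to 3, 2.90, 3.10 and 11.5 in unloaded pools 1 to 3, and 9.61 and 13.9 in the walked pools. Mat2a, which makes S-adenosylmethionine, the substrate of Amd1, had -0.03 ± 0.15 with unloading (limma adjusted p = 0.943) and 0.39 ± 0.16 between walked and unloaded muscle (adjusted p = 0.245). By the brightest probe set of each, limma called 0 of 5 tested genes around arginine and ornithine in any comparison. These were Oat, Asl, Gamt, Nos2 and Nos3, of which Nos2 and Nos3 use arginine and Gamt makes creatine. The arginases Arg1 and Arg2, which make ornithine, had probe sets too dim to be tested, so that step was not examined. At an unadjusted p under 0.05, 0 of the 5 genes differed in the first and second comparisons and 1 was lower in the last. On other probe sets, Nos3 was higher in walked than in unloaded muscle by 1.19, 1.86 and 0.35 (limma adjusted p = 0.109, 0.0796 and 0.501), the former pair at that level. With unloading AJ011116_at of Nos3 had -1.07 and D13978_s_at of Asl -0.39 (adjusted p = 0.215 and 0.228), also at that level. Walked against control, D13978_s_at of Asl had -0.58 and AJ011115_g_at of Nos3 0.85 (adjusted p = 0.0850 and 0.177), again at that level.

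Myc, a transcription factor known to raise Odc1, was dim. Its testable probe set had -0.69 ± 0.35 with unloading (SE; limma adjusted p = 0.292) and 0.63 ± 0.39 between walked and unloaded muscle (adjusted p = 0.451). The other Myc probe set, too dim to be tested, lay at 1.90 to 6.80 on the control and unloaded arrays and at 28.4 and 31.2 on the walked ones. Oaz2, a second antizyme gene, named after its values were seen, had -0.14 ± 0.10 with unloading (adjusted p = 0.458) and -0.17 ± 0.11 between walked and unloaded muscle (adjusted p = 0.469). Its largest difference was between walked and control muscle, -0.32 ± 0.11 (adjusted p = 0.0974), where the groups did not overlap. Aoc1, the 1 tested gene of polyamine interconversion and breakdown, was also named after its values were seen. It had -0.01 ± 0.18 with unloading (SE; limma adjusted p = 0.978). Both walked pools lay below all other arrays, by -0.70 ± 0.20 against unloaded (adjusted p = 0.0910) and -0.71 ± 0.20 against control muscle (adjusted p = 0.052).

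**Figure D4:**
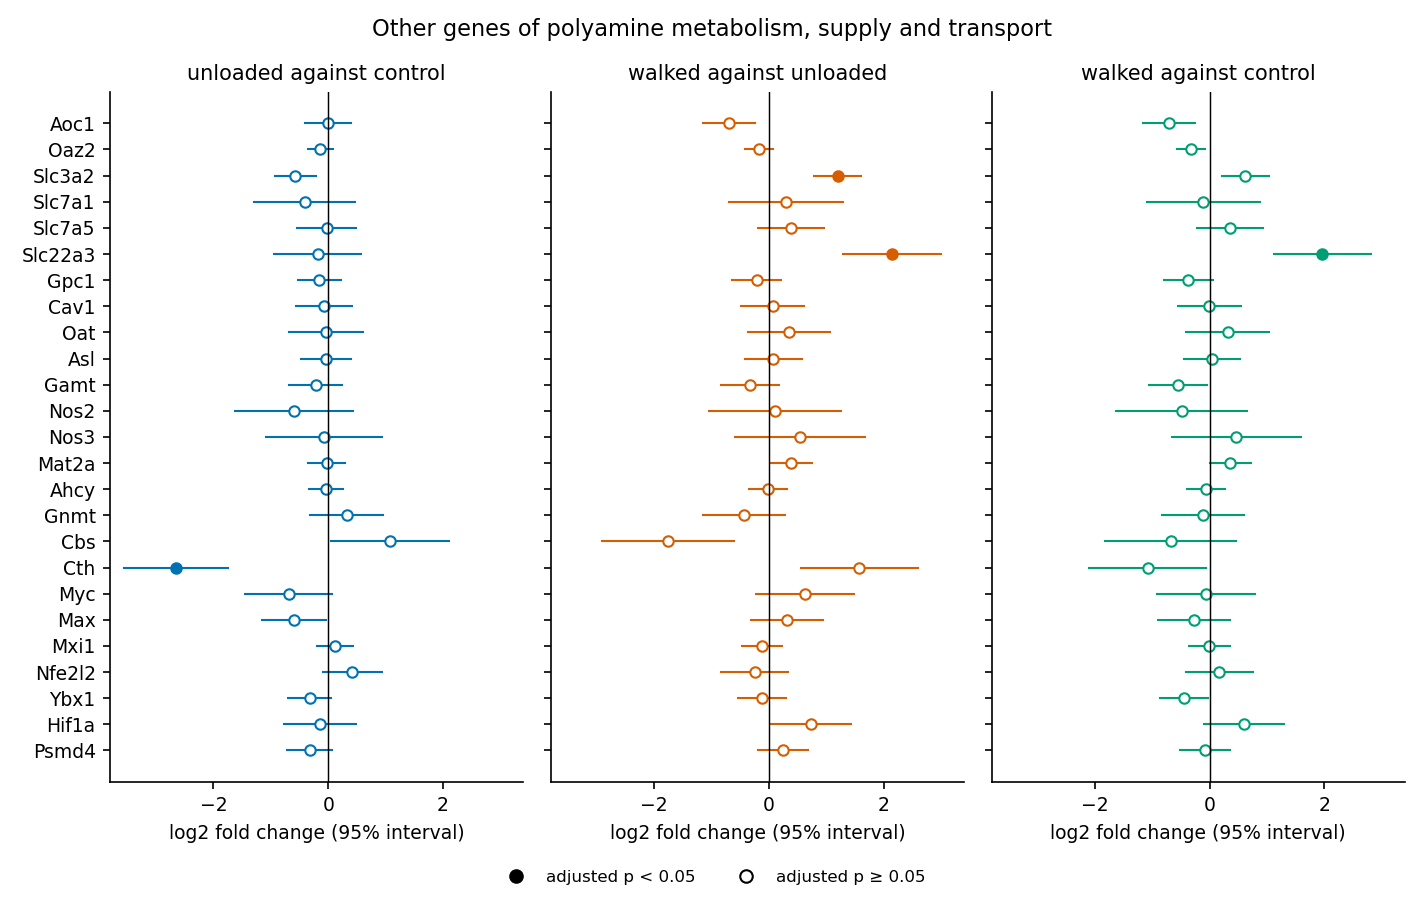
Log2 fold changes (x axis) with 95% intervals from limma of the 25 tested genes around the polyamine pathway (y axis), 1 panel for each comparison; filled points have an adjusted p under 0.05. Filled points are Cth at -2.66 with unloading, Slc3a2 at 1.20 and Slc22a3 at 2.15 in walked against unloaded, and Slc22a3 at 1.97 in walked against control muscle.

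Markers of other cells of whole muscle moved with the groups in part. With unloading, when Odc1 fell, 1 of 5 smooth muscle markers and 1 of 7 slow fibre markers fell (3.32% of all tested probe sets). Rises were found in 2 of 6 fibroblast, 1 of 5 leukocyte and 1 of 3 adipocyte markers (3.99% of all). Limma called 0 of 3 endothelial, 0 of 4 Schwann cell and 0 of 3 red cell markers, with 0 endothelial, 2 Schwann cell and 0 red cell markers at an unadjusted p under 0.05. The summed smooth muscle signal was 4008 to 4783 in control and 3712 to 4923 in unloaded muscle. That of fibroblast markers was 6263 to 9047 and 7367 to 11422, and that of leukocyte markers 1232 to 1263 and 1224 to 1437. For adipocyte markers it was 1213 to 1533 and 1174 to 1449, and all these ranges overlapped. The brightest markers weigh most in a sum, so overlap does not show that each marker was stable. Des, the brightest smooth muscle marker, had 0.34 with unloading, while Acta2, Tagln, Cnn1 and Myh11 had -0.64, -0.96, -0.38 and -0.13. Of fibroblast markers Dcn, Lum and Pdgfra had 1.83, 0.82 and 0.55, and Col1a1, Col1a2 and Col3a1 had -0.19, -0.17 and -0.03. Of adipocyte markers Fabp4 had 1.52, and Lep and Cfd had -0.28 and -0.43. Slow fibre markers summed to 21182 to 23294 in control and 22788 to 30704 in unloaded muscle. Apart from the 1 that fell (Tpm3), 3 of the 7 were higher at an unadjusted p under 0.05, and the median log2 fold change of the 7 was 0.28. Fast fibre markers summed to 10609 to 13356 in control and 13671 to 15786 in unloaded muscle, with 0 of 9 called by limma and 4 higher at an unadjusted p under 0.05. Between unloaded and walked muscle, where Amd1 differed most, 2 of 9 fast fibre, 1 of 5 leukocyte and 1 of 4 Schwann cell markers fell (1.47% of all). At an unadjusted p under 0.05, 2 of 5 smooth muscle (Tagln and Cnn1), 1 of 9 fast fibre and 1 of 7 slow fibre markers were higher (6.98% of all). Lower at that level were 4 of 9 fast fibre and 2 of 6 fibroblast markers (10.5% of all). So were 1 of 5 leukocyte, 1 of 3 adipocyte and 1 of 4 Schwann cell markers. Walked against control, 3 of 7 slow fibre and 1 of 6 fibroblast markers rose (4.46% of all). There 2 of 5 leukocyte, 1 of 9 fast fibre and 1 of 6 fibroblast markers fell (4.61% of all). In walked muscle the leukocyte markers summed to 940.0 to 1016 and the fast fibre markers to 10242 to 11156, both below every unloaded pool, and slow fibre markers to 28765 to 31549 against 22788 to 30704. No marker measured was at or below the floor on every array, and the part of these shifts in the results for the polyamine genes was not tested.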

How the data were processed

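Soleus RNA of 3 control, 3 unloaded and 2 walked pools was measured on 1 array each. The deposited values are signal intensity. Per the submitters' processing notes the authors used MAS5, with no version or scaling target named. The algorithm subtracts a background or mismatch estimate, so low signals are noisy, and the number of arrays limits the precision. Their 2% trimmed means were already close, at 148.4 to 148.8.

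Arrays were scaled to 1 trimmed mean (148.6), signals under the 10th percentile (4.10) were raised to it, and log2 was taken. The 5244 of 8740 probe sets with a mean signal above the 40th percentile (25.8) were fitted with limma 3.58.1 in R 4.3.3 (3 groups, all 8 arrays, eBayes with a trend, two-sided, 5 residual degrees of freedom, prior 6.00), checked on simulated data. Symbols came from the platform annotation: 7006 probe sets had 1, 308 several and 1426 none. Names ending in _s_at can match several transcripts. The genes, pathway list and markers were chosen with earlier results of these data known. By a fixed rule the text names all member probe sets, pathway genes called in any comparison, Myc, Srm, Sms, Smox and Mat2a, and the 3 closest patterns of each member. Outside that rule, Oaz2, Aoc1, Mxi1, Nos3 and Asl are given with values that had been seen. Alternatives were another normalization, floor, filter or trend, fits of 2 groups, the pool number as a block, and each array left out.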

Additional observations from a re-analysis of the deposited data

How the results depend on the processing

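Of the 2 Odc1 calls with unloading, the brighter probe set held under all 17 alternatives, and the count of polyamine probe sets called was 1 with no filter and 1 to 2 with an array left out. Between walked and unloaded muscle that count, 0 with all arrays, was 1 with a pseudocount of 16, 1 with only the 2 groups compared and 0 to 1 with an array left out; walked against control it was 0 throughout. A fit that leaves 1 walked pool assumes that it varies like the other groups. Probe sets called in all with unloading (383) were 228 with no filter, 243 without a trend and 230 (without unloaded pool 2) to 405 with an array left out. Walked against control (476), they were 216 with no filter, 211 without a trend, 251 with the pool number as a replicate block and 104 (without walked pool 2) to 504. Walked against unloaded (220), they were 120 (without walked pool 2) to 261 with an array left out. Pathway genes called with unloading (1) were 2 with no filter, with the block and with the mean over probe sets, and 1 to 2 with an array left out. Walked against unloaded (2), they were 1 with no filter and with the stricter filter (60th percentile), and 1 to 3. Walked against control (1), they were 3 after quantile normalization and with the mean over probe sets, 2 with the pseudocount, the stricter filter, no trend, the 2 groups only and the block, 0 with no filter, and 0 to 2. The cause was not tested. The block changed no call of Odc1, Amd1, Oaz1 or Azin1. Deviations of same-numbered arrays correlated at -0.07 to 0.05, so the numbers were not taken as pairs. Signs turned for Oaz1 between walked and unloaded muscle (0.0015 after quantile normalization, 0.10 with the block, -0.088 to 0.13 with an array left out) and brighter Azin1 against control (0.016 without control pool 2, -0.28 to 0.016 with an array left out). They also turned for Mat2a with unloading (0.036 after quantile normalization, -0.10 to 0.033 with an array left out), Slc22a3 with unloading (-0.49 to 0.18 with an array left out) and Myc against control (0.042 after quantile normalization, -0.31 to 0.14 with an array left out). Odc1 minus Oaz1 between walked and control muscle was 0.01 after quantile normalization, against -0.12. The dimmer Azin1 probe set has no value with the stricter filter.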
